A study of Mus musculus with 2 samples.

Results

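The glycolysis genes examined here are Hk2, Gpi1, Pfkl, Pfkp, Aldoa, Tpi1, Gapdh, Pgam1, Eno1 and Ldha, 10 of the 22359 protein-coding genes of the mm9 annotation. The list of enzymes was drawn up with earlier results of these data known, it leaves out Pgk1 and Pkm, whose values are given further below, and all 10 genes were found in the annotation and had reads in both libraries. For each gene, ChIP-seq reads of Msl1 and of Nsl1 were counted around its transcription start site (TSS), downstream of it and over the gene. Chromatin came from wild type mouse embryonic stem cells (mESCs), labelled E14 and passage 26, on the 129P2/OlaHsd background, and no other genotype or treatment was part of the series. It was precipitated with the anti-Msl1 antibody 3208 or the anti-Nsl1 antibody 3130, giving 1 library per antibody, and the question of the series is where along the genome both proteins bind. The Msl1 library was made with the NEXTFlex kit and the Nsl1 library with the NEBNext kit, so the antibody and the kit cannot be told apart. The sources do not say whether the chromatin came from separate cultures. With 1 library per antibody there is no replicate, no test between samples could be made, and no p-value is given.

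Glycolysis turns glucose into pyruvate in the cytosol, and lactate dehydrogenase then turns pyruvate into lactate. Mouse ES cells rely on this pathway for much of their energy and for carbon to build new cells, and its genes are among the highly transcribed genes of many dividing cells. Msl1 and Nsl1 are the scaffold subunits of separate complexes, MSL and NSL, that share the histone acetyltransferase Mof, which acetylates histone H4. Both complexes are known from flies and mammals to sit at active genes, NSL at promoters and MSL also over transcribed regions.

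Reads were 50 bases long for Msl1, 23888517 in all, and 36 bases long for Nsl1, 26084098 in all. Repeats of a position and strand (18.3% for Msl1 and 4.56% for Nsl1) and mitochondrial reads were left out, so that 19483142 distinct reads of Msl1 and 24883001 of Nsl1 were counted. The local level of a gene is the density of reads between 5 kb and 50 kb away from its TSS, upstream and downstream, in the same library, and a ratio is the number of reads within 500 bases of the TSS over that level. Intervals in brackets are exact 95% intervals and cover counting error only. No Input library was used here, so what open chromatin, copy number or base composition add to a ratio was not tested.

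Sequence upstream of the TSS is printed for the 4 genes at the ends of these measurements: Ldha, which had the highest Msl1 ratio, Hk2, which had the highest Nsl1 ratio, Gpi1, which had the lowest Nsl1 ratio, and Pgam1, whose Nsl1 reads were highest upstream of the TSS. Each line is 150 bases of mm9, 5′ to 3′ on the strand of the gene, and ends before the TSS, or before a RefSeq start that lies at most 100 bases upstream of it. No annotated exon overlaps them. Capitals mark matches, on either strand, of the short motifs counted further below (the E-box CACGTG with its core ACGTG, the box with the letters GGGCGG, the motif CCAAT and the Nrf1 motif GCATGCG).
Ldha, plus strand, chr7:54101024-54101173: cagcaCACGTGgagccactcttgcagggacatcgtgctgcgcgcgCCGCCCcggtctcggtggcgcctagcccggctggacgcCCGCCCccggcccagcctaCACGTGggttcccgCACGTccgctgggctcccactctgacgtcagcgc
Hk2, minus strand, chr6:82724449-82724598: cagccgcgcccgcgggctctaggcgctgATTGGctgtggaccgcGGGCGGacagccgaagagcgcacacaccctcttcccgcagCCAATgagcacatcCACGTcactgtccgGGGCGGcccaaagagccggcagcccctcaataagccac
Gpi1, minus strand, chr7:35015356-35015505: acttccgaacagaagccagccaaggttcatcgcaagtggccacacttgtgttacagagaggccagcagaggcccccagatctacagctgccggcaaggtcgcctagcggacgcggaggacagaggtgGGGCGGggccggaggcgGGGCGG
Pgam1, plus strand, chr19:41986211-41986360: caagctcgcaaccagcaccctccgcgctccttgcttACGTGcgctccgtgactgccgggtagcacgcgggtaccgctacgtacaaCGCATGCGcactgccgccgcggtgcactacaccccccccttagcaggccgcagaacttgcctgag

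At the TSSs themselves, the glycolysis genes held moderate numbers of reads of both proteins, and Ldha had the highest Msl1 ratio at the starts used. Of the 10 genes, 2 reached a Msl1 ratio of at least 3, Pfkp and Ldha, beside 23.5% of all protein-coding TSSs, and 0 reached a Nsl1 ratio of 3, beside 24.2%. At a ratio of at least 2 there were 6 genes for Msl1, beside 46.0% of all TSSs, and 6 for Nsl1, beside 41.7%. The median Msl1 ratio of the 10 genes was 2.37, where all TSSs had a median of 1.85 and quartiles of 1.10 and 2.92, and the median Nsl1 ratio was 2.36, where all TSSs had a median of 1.71 and quartiles of 1.13 and 2.94. The Nsl1 ratios lay close together, from 1.21 at Gpi1 to 2.72 at Hk2, and none reached the upper quartile of all TSSs. The Msl1 ratios were spread more widely, from 1.22 at Eno1 to 6.86 at Ldha. The count of 2 rests on where a TSS is set. At the most 3′ RefSeq starts (an alternative added after seeing the data), 4 genes reached a Msl1 ratio of 3 and still 0 a Nsl1 ratio of 3. The share of all TSSs was not counted at RefSeq starts, nor in the smaller window given next. The count of 0 rests on the window, since within 250 bases of the TSS 2 genes reached a Nsl1 ratio of 3, Pgam1 at 4.06 (2.76 to 5.76) and Ldha at 3.65 (2.28 to 5.52), and 1 gene, Ldha, a Msl1 ratio of 3, at 6.09 (4.05 to 8.80).

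**Figure D1:**
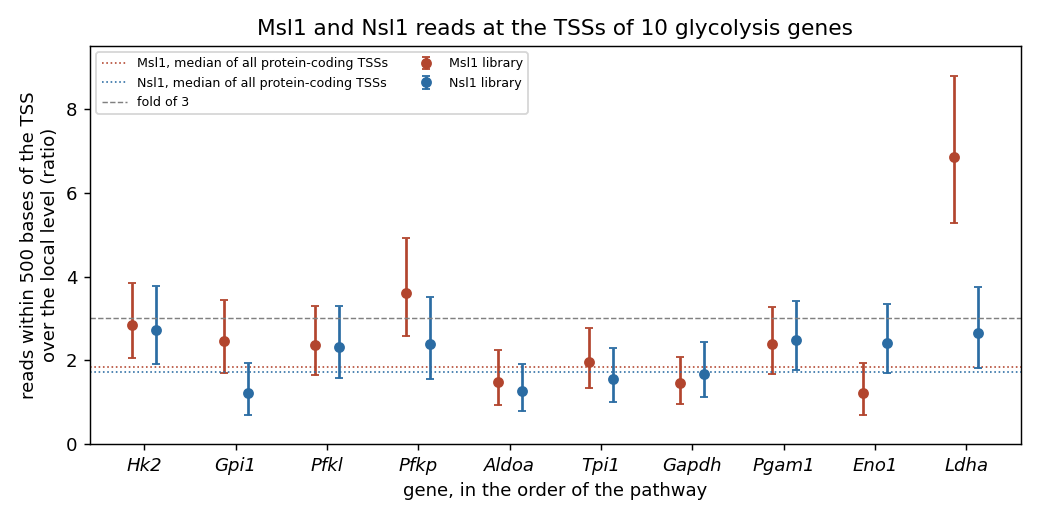
Reads within 500 bases of the TSS over the local level (ratio, linear axis from 0) for the 10 genes in pathway order, with exact 95% Poisson intervals as bars, 1 library per antibody. Dotted lines are the medians of all protein-coding TSSs, 1.85 for Msl1 and 1.71 for Nsl1, and the dashed line is a ratio of 3. Ldha has the highest Msl1 point at 6.86, and every Nsl1 point lies under 3.

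In the part of the pathway that uses ATP, Hk2 encodes hexokinase 2, which phosphorylates glucose and so keeps it in the cell. Its TSS lies at position 82724448 of chromosome 6 on the minus strand, where the Msl1 library held 42 reads, a ratio of 2.85 (2.05 to 3.85), and the Nsl1 library 36 reads, a ratio of 2.72 (1.91 to 3.77). The ratios of both libraries overlapped within their intervals, and Hk2 had the highest Nsl1 ratio of the 10 genes. Gpi1, the isomerase that turns glucose phosphate into fructose phosphate, lies on the minus strand of chromosome 7 with its TSS at 35015300. It held 34 Msl1 reads, a ratio of 2.46 (1.70 to 3.44), and 17 Nsl1 reads, a ratio of 1.21 (0.706 to 1.94), so the interval of Nsl1 included the local level and that of Msl1 did not.

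Phosphofructokinase, the main point at which flux through glycolysis is controlled, is represented by its liver type, Pfkl, and its platelet type, Pfkp. Pfkl, with its TSS at 77472552 of chromosome 10, held 35 Msl1 and 31 Nsl1 reads. Its ratios were nearly the same, 2.37 (1.65 to 3.29) for Msl1 and 2.33 (1.58 to 3.30) for Nsl1. Pfkp, with its TSS at 6648023 of chromosome 13, held 40 Msl1 reads, a ratio of 3.62 (2.58 to 4.93), and 25 Nsl1 reads, a ratio of 2.39 (1.54 to 3.52). Its local level covers sequence of which only 79.6% of positions can be read once in mm9 at 50 bases, and with reads counted per readable position Pfkp no longer reached a Msl1 ratio of 3.

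The middle steps split the sugar and harvest the triose phosphates. Aldoa encodes aldolase A, which cleaves fructose bisphosphate, Tpi1 the isomerase that interconverts the products, and Gapdh the dehydrogenase that makes NADH at the next step. At the TSS of Aldoa used here, 133943560 of chromosome 7, both libraries held 22 reads, a ratio of 1.48 (0.929 to 2.24) for Msl1 and of 1.26 (0.791 to 1.91) for Nsl1. Both intervals included the local level. Aldoa has 5 annotated groups of starts, and at the one 905 bases downstream the Msl1 ratio was 4.52 (3.50 to 5.73) and the Nsl1 ratio 1.38 (0.882 to 2.05). Tpi1, at 124764314 of chromosome 6, held 31 Msl1 reads, a ratio of 1.96 (1.33 to 2.78), and 25 Nsl1 reads, a ratio of 1.56 (1.01 to 2.30). Gapdh, at 125116485 of chromosome 6, held 29 Msl1 reads, a ratio of 1.45 (0.971 to 2.08), and 28 Nsl1 reads, a ratio of 1.68 (1.12 to 2.43). Its only RefSeq start lies 694 bases downstream, at 125115791, and there the ratios were 3.0 (2.29 to 3.86) for Msl1 and 2.94 (2.18 to 3.89) for Nsl1. At Aldoa the start further downstream therefore changed the Msl1 ratio and left the Nsl1 ratio within its interval, whereas at Gapdh both ratios were higher there.

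The lower steps end in pyruvate and lactate. Pgam1, the phosphoglycerate mutase, held 37 Msl1 reads at its TSS at 41986361 of chromosome 19, a ratio of 2.38 (1.68 to 3.28), and 38 Nsl1 reads, a ratio of 2.49 (1.76 to 3.42). Of the window at Pgam1, 84.9% of positions can be read once at 50 bases and 79.8% at 36 bases, the lowest shares of the 10 genes. Eno1, which encodes enolase 1, had the lowest Msl1 ratio at its TSS at 149610830 of chromosome 4, 1.22 (0.709 to 1.95) from 17 reads, against a Nsl1 ratio of 2.42 (1.69 to 3.35) from 36 reads. It has 5 groups of starts as well, and at the one 979 bases downstream the Msl1 ratio was 6.80 (5.50 to 8.31) and the Nsl1 ratio 1.88 (1.25 to 2.72). Ldha encodes a subunit of lactate dehydrogenase, which regenerates NAD as it turns pyruvate into lactate. Ldha held 63 Msl1 reads at 54101209 of chromosome 7, a ratio of 6.86 (5.27 to 8.77), and 32 Nsl1 reads, a ratio of 2.65 (1.82 to 3.75). The Msl1 ratio of Ldha was above that of 99.3% of all TSSs, its Nsl1 ratio was above that of 71.1%, and its Msl1 interval lay above that of Nsl1, as at 6.16% of all TSSs. At the other 9 genes the intervals of both ratios overlapped. At its most 5′ annotated start, several kb upstream, Ldha had a Msl1 ratio of 2.65 (1.72 to 3.92), and at its most 3′ RefSeq start one of 4.65 (3.34 to 6.31).

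Downstream of the TSS the Msl1 level was above the local level at all 10 genes, beside 74.5% of all TSSs, and above the Nsl1 level at all 10, beside 68.5%. From 500 to 2000 bases downstream, the median Msl1 level of the 10 genes was 3.51 times the local level, where the median of all TSSs was 1.51 and the upper quartile 2.26. All 10 genes lay above that quartile, the lowest, Pfkl, at 2.44 (1.83 to 3.18), and 6 lay at or above the 90 percentile of all TSSs. The highest were Eno1 at 6.50 (5.45 to 7.69) with 136 reads, Aldoa at 5.35 (4.43 to 6.40) with 119 reads and Ldha at 4.79 (3.71 to 6.10) with 66 reads. The Nsl1 level in the same stretch had a median of 1.58, where all TSSs had a median of 1.15 and an upper quartile of 1.44. Of the 10 genes, 7 lay above that quartile and 3 at or above the 90 percentile, and the interval lay above the local level at 6, beside 18.4% of all TSSs. The Nsl1 values ranged from 0.957 (0.619 to 1.41) at Aldoa to 2.53 (1.94 to 3.23) at Gapdh. At 7 of the 10 genes, beside 17.2% of all TSSs, the interval of Msl1 lay above that of Nsl1, and at Hk2, Pfkl and Pfkp the intervals overlapped.

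The downstream ratio divides the density from 500 to 2000 bases downstream by the density within 500 bases of the same gene and so needs no scaling between libraries. For Msl1 it was above 1 at 8 of the 10 genes and its interval at 5, beside 22.2% and 4.71% of the 10724 TSSs with at least 20 Msl1 reads, a number that Eno1 with 17 did not reach. The highest values were 5.34 (3.21 to 9.43) at Eno1, 3.61 (2.28 to 5.98) at Aldoa and 3.01 (2.0 to 4.68) at Gapdh. It was lowest at Pfkp, 0.868 (0.563 to 1.34), and at Ldha, 0.699 (0.487 to 1.00), where the reads at the TSS were already dense. The median of the 10 genes was 1.40 for Msl1, where all TSSs had 0.699, and 0.745 for Nsl1, where all TSSs had 0.425. For Nsl1 only Gapdh exceeded 1 at the starts used, at 1.50 (0.948 to 2.43), with an interval that included 1. At its RefSeq start that value was 0.504 (0.320 to 0.788), and at the most 5′ annotated start of Aldoa the Nsl1 value was 1.37 (0.761 to 2.56). With the most 3′ RefSeq starts, the ratio fell to 1.71 (1.23 to 2.42) at Eno1, to 1.49 (1.09 to 2.04) at Aldoa and to 2.27 (1.69 to 3.08) at Gapdh for Msl1, and the ratio over the summed reads moved from 1.62 to 1.42. The Msl1 ratios at Eno1 and Aldoa were thus lower at these starts and still above 1.

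In bins of 500 bases over the 10 genes together, Msl1 stood at 1.50 times the local level (1.23 to 1.82) in the bin before the TSS, at 3.36 (2.95 to 3.81) in the bin after it and at its highest, 4.69 (4.20 to 5.22), from 1000 to 1500 bases. Of the 337 reads in that bin, 71 were at Aldoa, 63 at Gapdh and 59 at Eno1, which have RefSeq starts 868, 694 and 503 bases further downstream. Without these 3 genes the Msl1 level of the other 7 was highest just after the TSS, 4.19 (3.63 to 4.82), nearly as high from 500 to 1000 bases, 4.09 (3.53 to 4.71), and 3.04 (2.56 to 3.57) from 1000 to 1500 bases. With all 10 genes at their most 3′ RefSeq starts, it lay between 4.12 and 4.46 in each of the 4 bins up to 2000 bases. The place of the maximum therefore changed with the genes and starts used. With the 10 genes at the starts used, the Msl1 level was still 2.09 (1.77 to 2.45) from 4500 to 5000 bases, where all TSSs had 1.13. Nsl1 was highest in the bin before the TSS, 2.07 (1.75 to 2.43), remained at 1.97 (1.66 to 2.32) in both bins up to 1000 bases and reached 1.13 (0.898 to 1.41) from 1500 to 2000 bases. All TSSs together had their highest bin just after the TSS in both libraries, at 2.77 for Msl1 and 2.54 for Nsl1, and Nsl1 stood at 2.47 in the bin before it. Up to 500 bases on either side of the starts used, the summed Nsl1 reads were therefore lower at the glycolysis genes than over all TSSs, although their median ratio was above the median TSS. In the bin before the TSS this depends on the genes and starts. Nsl1 was 2.27 (1.86 to 2.74) there without Aldoa, Gapdh and Eno1. At the most 3′ RefSeq starts it was 2.24 (1.91 to 2.62), and both intervals included 2.47. In the bin after the TSS the intervals of both settings lay below 2.54. Downstream beyond 500 bases Msl1 was higher. At the starts used, Nsl1 was higher downstream too, at 1.97 against 1.37 from 500 to 1000 bases. From 1000 to 1500 bases it stood at 1.61 against 1.14. The first of these differences depends on the genes and starts. From 500 to 1000 bases Nsl1 was 1.59 (1.25 to 1.99) without Aldoa, Gapdh and Eno1. With all 10 genes at their most 3′ RefSeq starts it was 1.45 (1.19 to 1.76). Both intervals included 1.37. From 1000 to 1500 bases the intervals of both settings lay above 1.14. Upstream, from 1000 to 500 bases before the starts used, Msl1 was lower, at 1.09 against 1.49. Without Aldoa, Gapdh and Eno1 it was 1.05 (0.782 to 1.39) there. This difference depends on the starts. With all 10 genes at their most 3′ RefSeq starts Msl1 was 1.76 (1.47 to 2.10) in that bin, with an interval that included 1.49.

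**Figure D2:**
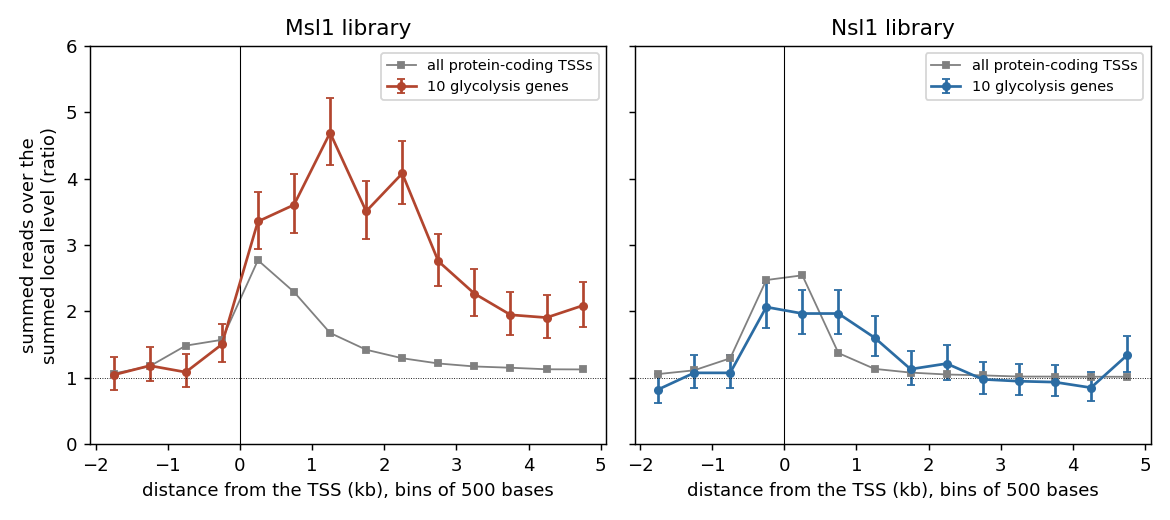
Summed reads of the 10 glycolysis genes in bins of 500 bases over their summed local level (ratio) against the distance from the TSS (kb), with exact 95% Poisson intervals as bars, and the same for all protein-coding TSSs in grey. Msl1 (left) reaches 4.69 between 1000 and 1500 bases downstream, where Aldoa, Gapdh and Eno1 hold 193 of the 337 reads, and stays above the grey line up to 5000 bases, whereas Nsl1 (right) is highest, at 2.07, in the bin before the TSS.

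The place of the highest window of 200 bases within 2 kb of the TSS (the nearest to the TSS in case of ties) differed between the libraries as well. For Msl1 it lay downstream of the TSS in all 10 genes, beside 67.6% of all TSSs, from 180 bases at Pfkl to 1270 bases at Tpi1 and Eno1, with a median of 710 bases. These distances depend on the start: from the most 3′ RefSeq starts the median was 525 bases, and the window lay 290 bases downstream at Aldoa, 760 bases at Eno1 and, as the only upstream one, at -930 bases at Ldha. At Tpi1 no Nsl1 window held more than 9 reads, and windows with that number lay from 1320 bases upstream to 1240 bases downstream, so Tpi1 was left out for Nsl1. Over the other 9 genes the Nsl1 median was 340 bases, and 2 genes, Pgam1 and Ldha, had their highest window upstream. With Tpi1 kept in, the Nsl1 median was 195 bases. The Nsl1 place depends on the start as well. From the most 3′ RefSeq starts the Nsl1 median over all 10 genes was -45 bases, and the window lay downstream at 5 of them. At Hk2 the highest Nsl1 windows were tied from 410 bases upstream to 70 bases downstream, and the one nearest to the TSS was used. Msl1 lay further downstream than Nsl1 at 7 of the 9 genes, all but Pfkl and Pfkp, beside 61.9% of all TSSs. The highest Msl1 windows were those of Ldha, 26 reads at 14.2 times the local level (9.25 to 20.8) in intron 1, of Aldoa, 38 reads at 12.8 times (9.07 to 17.6) in intron 1, and of Gapdh, 40 reads at 10.0 times (7.15 to 13.6) in intron 2. Gapdh held a still higher Msl1 window beyond 2 kb, 44 reads, centred 2200 bases downstream. The highest Nsl1 window was that of Pgam1, 25 reads at 8.20 times the local level (5.31 to 12.1), centred 100 bases upstream of the TSS, within the sequence printed for this gene.

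**Figure D3:**
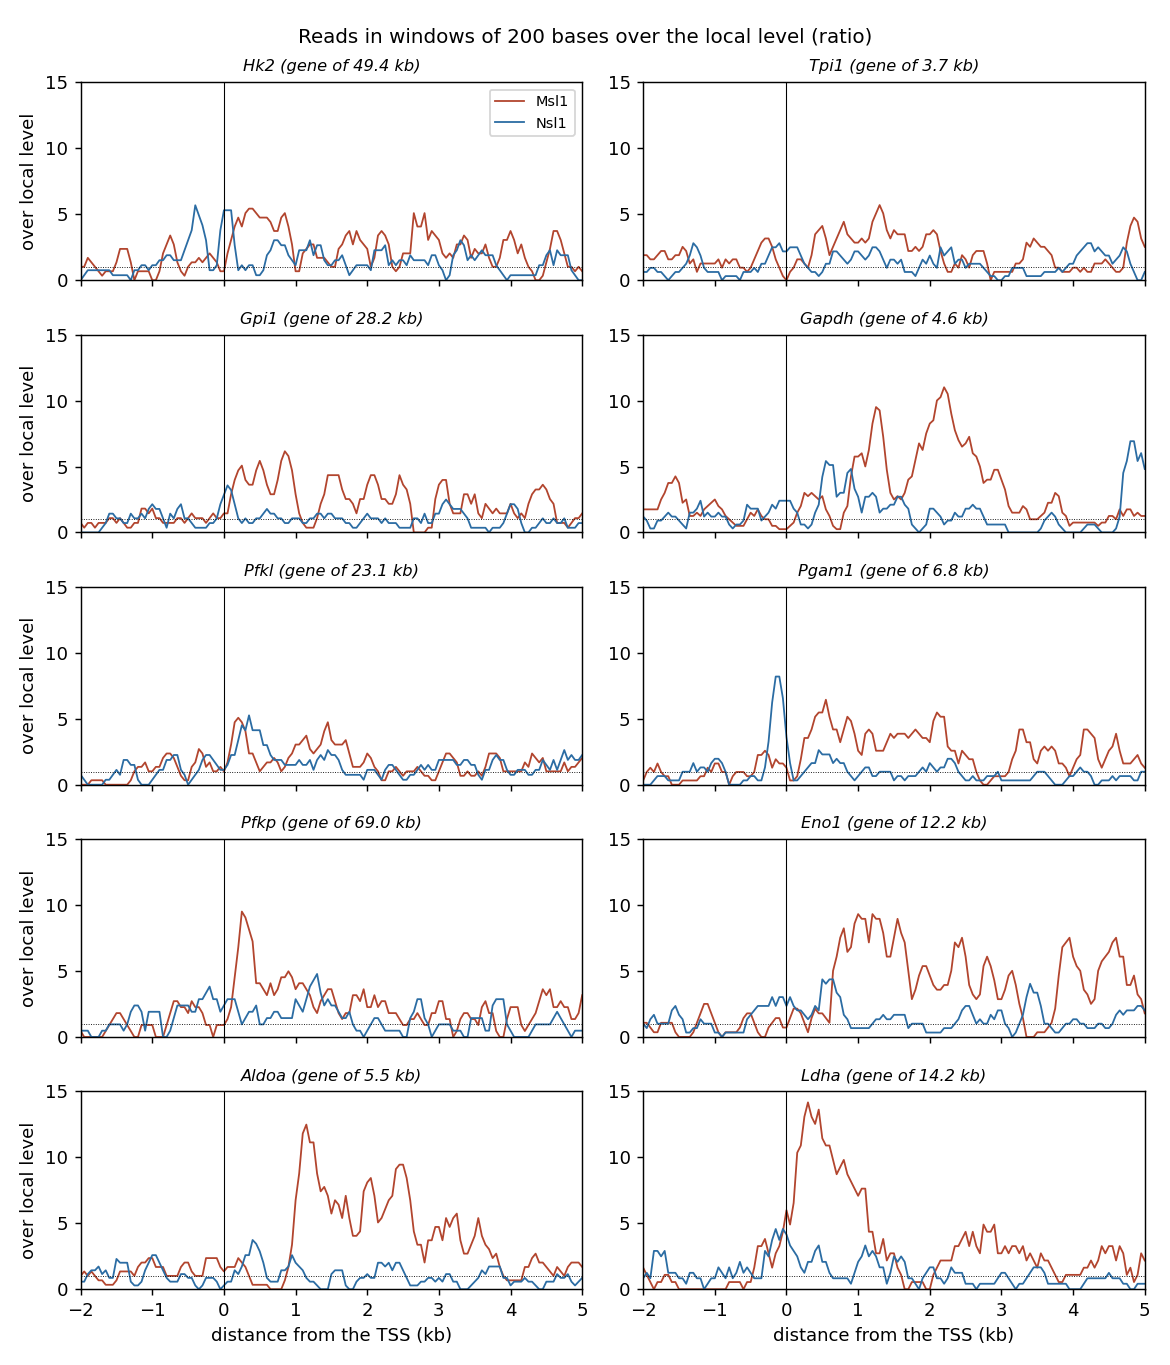
Reads in windows of 200 bases over the local level (ratio) against the distance from the TSS (kb) for each of the 10 genes, Msl1 in red and Nsl1 in blue, 1 library each. The Msl1 line has its highest window downstream of the TSS in all 10 genes, at 14.2 for Ldha, and Nsl1 has a narrow maximum of 8.20 just upstream of Pgam1.

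Over the whole gene, from 500 bases after the TSS to the gene end, Msl1 reads exceeded the local level at every one of the 10 genes, beside 65.7% of all genes, and most at the short ones. Aldoa, 5518 bases long, had a Msl1 level of 4.33 times the local level (3.84 to 4.88), Gapdh, 4615 bases long, 3.87 (3.45 to 4.32), Eno1, 12159 bases long, 3.01 (2.75 to 3.28), Tpi1, 3711 bases long, 2.46 (2.05 to 2.94), Ldha 2.38 (2.07 to 2.73) and Pgam1 2.18 (1.90 to 2.49). The 4 genes of 15 kb or more were lower, with 1.49 (1.40 to 1.58) at Hk2, 1.43 (1.31 to 1.55) at Gpi1, 1.34 (1.26 to 1.42) at Pfkp and 1.15 (1.04 to 1.27) at Pfkl. Short genes had higher values in general, with a median of 1.19 over the 8956 genes under 15 kb and of 1.07 over the 11234 longer genes. Set against genes of their own length class, 5 of the 6 short genes lay at or above the 90 percentile, all but Pgam1, and of the 4 long genes Hk2 and Gpi1 did, at the 94.1 and 92.1 percentile. For genes longer than 5 kb, a part of the gene lies within the stretch that gives the local level.

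Nsl1 reads over the same stretch stayed close to the local level. The median over the 10 genes was 1.09, where all genes had 1.02, and the values ran from 0.678 (0.523 to 0.864) at Pgam1 to 1.35 (1.08 to 1.65) at Gapdh. The interval of Msl1 lay above that of Nsl1 at 9 of the 10 genes, all but Pfkl, beside 22.6% of all genes. In the 2 kb past the gene end, Msl1 ranged from 0.579 to 1.71 times the local level, and at 7 genes the interval included 1. The highest Nsl1 level past a gene end was 2.62 (2.10 to 3.23) at Gapdh. Of the stretch over the gene, 76.0% of positions at Gapdh and 78.0% at Pgam1 can be read once at 50 bases, fewer than at the other genes shorter than 50 kb, and the values were not corrected for this. The RNA of these genes was not measured here, and whether the Msl1 reads follow transcription was not tested.

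**Figure D4:**
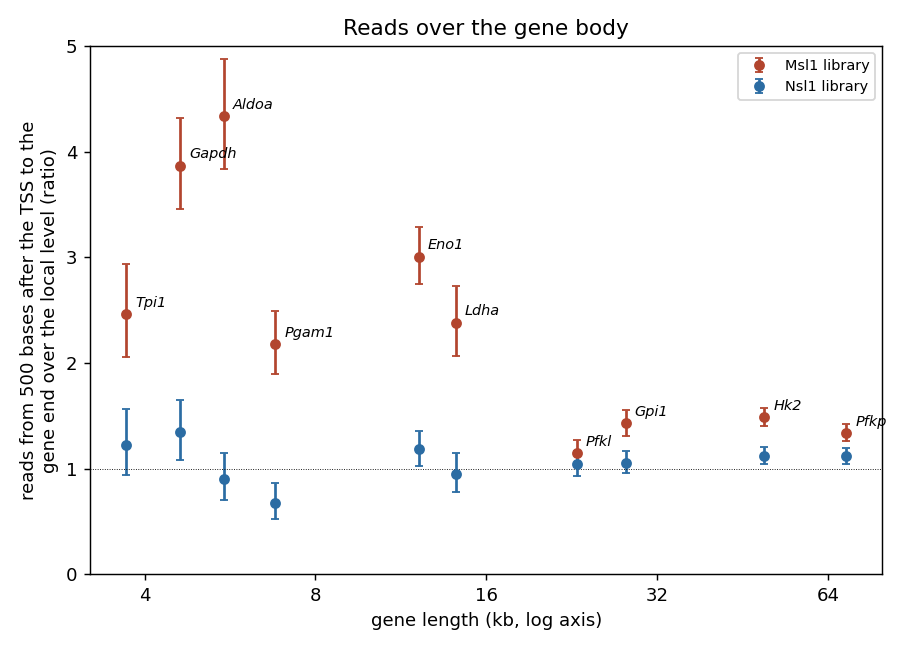
Reads from 500 bases after the TSS to the gene end over the local level (ratio, linear axis from 0) against gene length (kb, log axis) for the 10 genes, with exact 95% Poisson intervals as bars. The 6 Msl1 points of genes under 15 kb lie between 2.18 and 4.33, those of the longer genes between 1.15 and 1.49, and the Nsl1 points between 0.678 and 1.35.

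Per read of each library, Msl1 exceeded Nsl1 within 2 kb of the TSS at all 10 genes, as at 73.0% of all TSSs with enough reads. At the most 5′ annotated start of Ldha, however, the ratio of Msl1 to Nsl1 was 1.24 (0.886 to 1.74) with an interval that included 1, and Aldoa, the highest gene, had 1.77 (1.32 to 2.38) at its own. The ratio of Msl1 to Nsl1 was 2.68 (2.05 to 3.54) at Aldoa, where 170 Msl1 and 81 Nsl1 reads were counted, 2.41 (1.75 to 3.34) at Gpi1 with 115 and 61 reads, 2.40 (1.91 to 3.03) at Gapdh with 218 and 116 reads and 2.40 (1.85 to 3.13) at Eno1 with 171 and 91 reads. It was 2.24 (1.70 to 2.98) at Tpi1 with 144 and 82 reads and 2.24 (1.69 to 2.98) at Pgam1 with 142 and 81 reads. The lower values were 2.07 (1.56 to 2.76) at Ldha with 133 and 82 reads, 1.86 (1.41 to 2.46) at Hk2, 1.83 (1.35 to 2.50) at Pfkp and 1.67 (1.24 to 2.26) at Pfkl. These intervals overlap between neighbours in the order, and those of Pfkl and Aldoa, the lowest and the highest, overlap too. The median was 2.24, where the 14603 protein-coding TSSs at which both libraries summed to 100 reads or more had a median of 1.28 and quartiles of 0.977 and 1.68. Promoters of the 10 genes had a GC content of 55.3% to 69.0%. The 8244 of these TSSs with promoters of 55% to 70% GC had a median of 1.28 as well. GC was taken over the promoter and not over the whole window of reads, and whether base composition changes the ratio was not tested. Scaled to the reads from 5 to 50 kb instead of the whole library, the ratio over the summed reads fell from 2.19 to 1.71, and the intervals reached 1 at Hk2, 1.30 (0.989 to 1.72), at Pfkl, 1.18 (0.874 to 1.59), and at Pfkp, 1.36 (0.999 to 1.85). Scaled to the library, but within 500 bases of the TSS, the summed ratio was 1.54. There the interval lay above 1 at 3 genes, Gpi1 at 2.55 (1.39 to 4.88), Ldha at 2.51 (1.62 to 3.98) and Pfkp at 2.04 (1.21 to 3.51), and included 1 at the other 7. Among these 7, only Eno1 had a value under 1, 0.603 (0.318 to 1.10).

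Most of these steps have other enzymes that are known from other tissues, and 12 isozymes of the 10 genes were counted in the same way, with 5 genes of other steps, the Pgk, pyruvate kinase and Bpgm genes. The isozymes had a median ratio of 1.11 for Msl1 and 1.21 for Nsl1. Of the 12, 1 reached 3 for Msl1, beside 23.5% of all TSSs, and 0 for Nsl1, beside 24.2%. The sperm forms Ldhc and Gapdhs had Msl1 ratios of 0.347 and 0.407, the lowest of the list. For Nsl1, Gapdhs had 0.332, again the lowest. Ldhc had a Nsl1 ratio of 2.07 (1.33 to 3.08), with an interval above that of its Msl1 ratio. The hexokinases Hk1 and Hk3 had Msl1 ratios of 1.07 and 1.01, beside 2.85 at Hk2, and Aldoc, the aldolase of brain, had 1.39, beside 1.48 at Aldoa. The muscle forms Eno3 and Pgam2 had 1.15 and 1.39, beside 1.22 at Eno1 and 2.38 at Pgam1, and Eno2, the enolase of neurons, had 1.32. The exceptions in both libraries were Pfkm and Ldhb. Pfkm, the muscle phosphofructokinase, had 3.25 for Msl1 and 2.42 for Nsl1. Ldhb, the lactate dehydrogenase subunit of heart, had 2.91 and 2.40. Within 2 kb the ratio of Msl1 to Nsl1 had a median of 1.10 over the isozymes, with a highest value of 1.58 (1.24 to 2.02) at Eno3, whose interval overlapped that of Pfkl, the lowest of the 10 genes. Whether these isozymes are transcribed in these cells was not measured here.

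Among the 5 genes of the steps outside the list, Pkm, the pyruvate kinase of most dividing cells, had the highest Msl1 ratio, 3.58, and Pklr, the pyruvate kinase of liver and red cells, the lowest, 0.684. Pgk1, Pkm and Bpgm reached a Msl1 ratio of 3, beside 23.5% of all TSSs. A Nsl1 ratio of 3 was reached by Pgk1, Pgk2 and Bpgm, beside 24.2%. The value of Pgk2, 4.89 (2.90 to 7.73), rests on 18 reads at a local level of only 3.68 reads per kb. Pgk1, the phosphoglycerate kinase of somatic cells, and Pkm also had ratios of Msl1 to Nsl1 within 2 kb of 2.09 and 2.18, whereas Pgk2, Pklr and Bpgm lay between 0.639 and 0.977. Pgk1 and Bpgm were named after their values were seen.

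The tricarboxylic acid (TCA) cycle, which oxidizes pyruvate carbon in mitochondria, showed other values in both libraries. Of its 17 genes, 14 reached a Nsl1 ratio of 3, against 0 of the 10 glycolysis genes and 24.2% of all TSSs. A Msl1 ratio of 3 was reached by 11, against 2 of 10 and 23.5% of all TSSs. The counts of the glycolysis genes change with the window and the start, as given above. The median Nsl1 ratio was 4.25, against 2.36, with the highest at Sucla2, a subunit of succinyl-CoA ligase, 14.3, and the lowest at Ogdh, a subunit of oxoglutarate dehydrogenase, 2.08. The median Msl1 ratio was 3.43, from 1.01 at Sucla2 to 6.14 at Sdhd, a subunit of succinate dehydrogenase. From 500 to 2000 bases downstream, their median Msl1 level was 2.08 times the local level, against 3.51 for the glycolysis genes, and their median Nsl1 level 1.32, against 1.58. The downstream ratio had a median of 0.667 for Msl1, against 1.40, and of 0.288 for Nsl1, against 0.745, but it divides by the reads at the TSS, which were denser at the TCA cycle genes. Their median ratio of Msl1 to Nsl1 within 2 kb was 1.11, against 2.24, and the ranges of both lists overlap, since Mdh2, malate dehydrogenase, had 2.06. Both lists were described by counts and medians, and the difference between them was given no test.

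**Figure D5:**
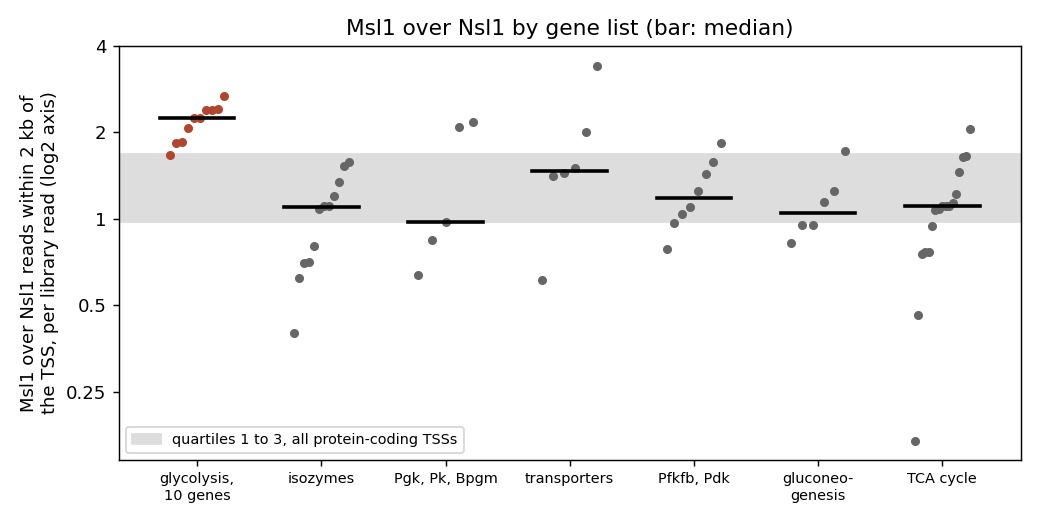
Msl1 over Nsl1 within 2 kb of the TSS, per read of each library (log2 axis), for each gene of 7 lists, with the median of each list as a bar and quartiles 1 to 3 of all protein-coding TSSs as a grey band from 0.977 to 1.68. The 10 glycolysis genes lie between 1.67 and 2.68 with a median of 2.24, and the isozymes have a median of 1.10.

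In the promoters, taken as 250 bases before to 50 bases after the TSS used, the 10 genes shared CpG-rich sequence only in part. The observed over expected CpG ratio ran from 0.258 at Gapdh to 0.948 at Pgam1, where all promoters had a median of 0.548. The start of Gapdh used here lies 694 bases upstream of its only RefSeq start. The RefSeq start of Aldoa nearest to the one used lies 401 bases upstream of it. CpG and motifs were not counted around RefSeq starts, so the values of Gapdh and Aldoa hold for the start used only. The GC box GGGCGG was found on either strand in 7 of the 10 promoters, beside 44.5% of all promoters, and CCAAT in 4, beside 37.8%. ACGTG, the core shared by the E-box and the hypoxia response element, was found in 5 promoters, those of Hk2, Gpi1, Gapdh, Pgam1 and Ldha, beside 20.6% of all. Each E-box CACGTG also holds this core, on both strands, and the full E-box was found in Ldha only, 83 and 180 bases upstream of the TSS, beside 7.77% of all promoters. The Nrf1 motif GCATGCG was found in Pgam1 only, beside 4.32% of all, with matches on both strands 64 and 65 bases upstream and again 2 and 3 bases downstream of the TSS. The YY1 motif AGATGGC was found in Eno1 only, beside 6.31% of all, and TATAAA, the Ets motif CCGGAAG and the Znf143 motif ACAATTC in none of the 10, beside 13.4%, 11.1% and 2.48% of all promoters. These are matches of letters and do not show that a factor binds there.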

How the data were processed

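Per the labels and the methods of the study, DNA was sequenced as single-end reads and aligned to mm9, with CASAVA 1.8.2 and Bowtie 0.12.7 named in the processing notes of the submitters. The deposited files hold 1 line per aligned read with its position and strand, and the alignment score deposited by the authors is 255 on every line and was not used. Counting used numpy 2.4.6, scipy 1.17.1, numba 0.67.0 and pandas 2.3.3 under Python 3.11.15, and plots matplotlib 3.10.9. MACS was not run and no Input library was used here. Mitochondrial reads and repeats of a position and strand were left out. Each read was shifted downstream to its fragment's middle, by 106 bases for Msl1 and 66 bases for Nsl1, from the strand cross-correlation on chromosomes 16, 17 and 19. Genes came from a GENCODE annotation of mm9. The TSS was the one shared by most protein-coding transcripts, with starts within 50 bases joined and ties given to the most 5′. At Hk2, Pfkp, Gapdh and Eno1 each group of starts held 1 transcript, so the rule for ties set the start used. RefSeq promoters of GRCm38.p6 were matched letter by letter to mm9, and all 10 genes had a match. For all TSSs, ratios were taken where the local level held at least 20 reads, and downstream ratios where the window at the TSS did. Poisson intervals treat the local level as known. The counting was tested on simulated data. All 10 glycolysis genes are named. Of other listed genes, isozymes and the ends of each list per library are named, except that some isozymes counted in their list are not reported here. The members and lists were chosen with earlier results of these data known.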

Additional observations from a re-analysis of the deposited data

How the results depend on the processing

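No paired analysis was possible because each antibody had 1 library. Between 17 and 63 reads lay within 500 bases of a TSS, which limits every ratio, and each library is a single precipitation. Alternatives at the gene body and the most 3′ RefSeq starts were added after seeing the data. For the summed Msl1 ratio at the TSS, 2.43 as reported, the most 5′ TSS gave 2.17, the most 3′ RefSeq start 3.0, the genome level 4.59 and a window of 250 bases 1.99. For Nsl1, 2.02 as reported, the genome level gave 2.98, a window of 250 bases 2.37 and one of 1000 bases 1.77. The 2 genes past a Msl1 ratio of 3 became 1 with the most 5′ TSS, with readable positions or with a window of 250 bases, 4 with the RefSeq starts, 8 with the genome level and 6 at a fold of 2. The 0 genes for Nsl1 became 5 with the genome level, 2 with a window of 250 bases and 6 at a fold of 2. Except at a fold of 2, the shares of all TSSs under these settings were not counted. With the RefSeq starts, the downstream ratio moved from 1.62 to 1.42 for Msl1 and from 0.773 to 0.613 for Nsl1, and Msl1 over Nsl1 within 2 kb from 2.19 to 2.52. The last was 1.54 within 500 bases and 1.71 scaled to the reads from 5 to 50 kb, and at Eno1 it turned to 0.603 within 500 bases. The gene body value moved from 1.70 to 1.89 (local level from 10 to 100 kb), 1.79 (without 1 kb around annotated TSSs) and 2.95 (genome level) for Msl1, and from 1.08 to 1.15, 1.14 and 1.42 for Nsl1. The cause of these moves was not tested. The 2 genes for Msl1 became 3 with the local level from 10 to 100 kb. In all, 48 summed values and counts, this one included, stayed within their interval or within 1.5 times.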

Other observations

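Glucose and lactate cross the membrane through carriers, and 6 of their genes were counted in the same way. Slc16a1, a monocarboxylate carrier, had the highest ratios of the list, 5.12 for Msl1 and 4.62 for Nsl1, from 48 reads each. It alone reached 3 in either library, beside 23.5% of all TSSs for Msl1 and 24.2% for Nsl1. The lowest were 1.13 for Msl1 at Slc2a2, the glucose carrier of liver and pancreas, and 1.20 for Nsl1 at Slc2a4, that of muscle and fat. Slc2a1, a glucose carrier of many cell types, had the highest ratio of Msl1 to Nsl1 within 2 kb of all 64 listed genes, 3.40. It was named after its value was seen.

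The Pfkfb and Pdk kinases set the activity of phosphofructokinase and the entry of pyruvate into mitochondria. Of their 8 genes, 4 reached a Nsl1 ratio of 3, beside 24.2% of all TSSs. A Msl1 ratio of 3 was reached by 2, beside 23.5%. Pfkfb1 had the highest Nsl1 ratio, 5.51 (3.60 to 8.08), from 26 reads at a local level of 4.71 reads per kb. Pdk3 had the highest Msl1 ratio, 3.85, from 21 reads. Pfkfb2 had the lowest in both libraries, 0.796 for Nsl1 and 0.558 for Msl1. Of the 6 gluconeogenesis genes, 1 reached a Nsl1 ratio of 3, beside 24.2% of all TSSs. It was Pcx with 3.19, which also had the highest Msl1 ratio, 2.36. G6pc, the phosphatase that releases glucose from the liver, had the lowest of both, 0.681 for Nsl1 and 0.908 for Msl1. These values have no replicate and were given no test.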
